A study of Mus musculus with 10 samples.

Results

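The piRNA pathway of the germline was followed in P21 mouse testis through 33 genes, chosen by name from among the 55421 genes of the count tables. All 33 were found in the tables and all 33 passed the filter for testing, a level above 1 CPM (read counts scaled by the library total) in at least 3 of 6 RNA-seq libraries. They were sorted by role into 3 Piwi proteins, 10 Tudor domain proteins, 3 genes for the transcription and export of piRNA precursors, 11 genes for piRNA processing and the nuage, and 6 genes for the silencing of transposon loci and germline defence. RNA-seq compared 3 wild type with 3 Mov10-/- testis samples at postnatal day 21 (P21). MOV10 CLIP-seq was done in 4 libraries labelled as mouse testis, which the paper places in wild type testis at P21. Their RNA came from the main radioactive band and a higher gel position, and the labels do not tell which library is which. MOV10 is an RNA helicase that binds RNA and restrains retrotransposons. The knockout is global: the floxed exons of a Mov10 allele were deleted with Actb-Cre, which acts in all tissues. Germ cells and somatic cells thus both lack these exons, and the rest of the transcript is shifted out of frame. Intercrosses of heterozygotes gave the Mov10-/- animals. The animals studied are those that survived, since part of the Mov10-/- embryos die, and the background is given as mixed (129 x C57BL/6 x FVB). The wild type controls carried no other allele named in the sources used here, and no animal was treated. The design text gives 6 pairs of testes, 1 for each RNA-seq library, and beyond that nothing tells which animal or litter a library came from.

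piRNAs are small RNAs of germ cells that bind Piwi proteins and guide them to transposon RNA and to the chromatin of transposon copies. Long precursors are transcribed from piRNA clusters, exported, cut on the surface of mitochondria and in the nuage, a perinuclear germ granule, trimmed at the 3′ end and methylated there. In fetal prospermatogonia PIWIL2 and PIWIL4 direct DNA methylation of young retrotransposons, and in pachytene spermatocytes PIWIL1 and PIWIL2 carry the abundant pachytene piRNAs. The P21 testis holds spermatogonia, spermatocytes and the first round spermatids beside Sertoli, Leydig and other somatic cells.

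Mov10 itself was measured first. The Mov10-/- libraries with replicate numbers 2, 3 and 4 gave 29.2, 26.7 and 26.8 CPM, and the wild type libraries 1, 2 and 3 gave 114.1, 96.8 and 119.8 CPM. The groups were far apart, with a log2 fold change of -2.0 ± 0.12 (SE) and an adjusted p of 0.0055 (edgeR quasi-likelihood fit, Benjamini-Hochberg method). Counts were summed over the whole gene, of which only the floxed exons are deleted. CPM values here are scaled by library total and by edgeR's TMM factors, and the 3 values of a genotype are always given in the order of their replicate numbers. Reads counted on genes numbered 7600909 to 9230540 in the wild type and 5083407 to 8027805 in the Mov10-/- libraries. Mov10-/- replicate 3 was the shallowest, with 57.2% of its reads not aligned. Summed over 19 spermatid markers, 17 of which passed the filter, the libraries reached 673, 1503 and 505 CPM in wild type and 220, 462 and 303 CPM in Mov10-/-. Wild type replicate 2 and Mov10-/- replicate 3 thus stood highest within their genotypes.

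Most of the 33 genes differed little between the genotypes, and the largest difference was a lower level of Dnmt3l in Mov10-/- testis. By edgeR's quasi-likelihood test, none of the 33 genes was called at an adjusted p under 0.05 and a fold over 2. Of the 20240 genes tested, 0.00494% were called, which is Mov10 alone. At the same thresholds DESeq2 called 1034 genes, edgeR's exact test 1101 and its likelihood ratio test 1187. Dnmt3l was the only one of the 33 called by each of these. The authors' own edgeR analysis reports many called protein-coding genes, most of them lower in Mov10-/- testis. The median log2 fold change of the 33 genes was -0.01, with 17 genes below 0 and 16 above (Mael and Pld6, near 0, passed to below 0 under DESeq2's size factors), and the median over all genes tested was 0.03. Without Dnmt3l the fold changes ran from -0.23 for Gtsf1 to 0.44 for Piwil4, and 27 genes lay within 0.15 of 0. For 30 of the 33 genes the 95% interval of the change stayed within 2-fold in both directions, which held for 59.6% of all genes tested. The exceptions were Dnmt3l, Piwil4 and Nanos2, the 3 genes with the lowest level per transcript length. The standard error had a median of 0.13 log2 units over the 33 genes and 0.24 over all genes tested. At an unadjusted p under 0.05, 1 of the 33 genes was lower, Dnmt3l, against 11.9% of all genes tested, and none was higher, against 5.58%. Groups that did not overlap were found for Dnmt3l and Rnf17 on the lower side, against 14.1% of all genes, and for Fkbp6 on the higher side, against 11.9%. With fewer libraries to compare, groups did not overlap for 10, 8 and 8 of the 33 genes without Mov10-/- replicates 2, 3 and 4, and for 6, 4 and 3 without wild type replicates 1, 2 and 3. These are 9.09% to 30.3% of the 33 genes, and the shares over all genes tested in the same settings were 28.9% to 41.1%, above that of the 33 genes in each. The tests compare libraries of whole testis, in which fewer cells of a type and less RNA per cell cannot be told apart.

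**Figure D1:**
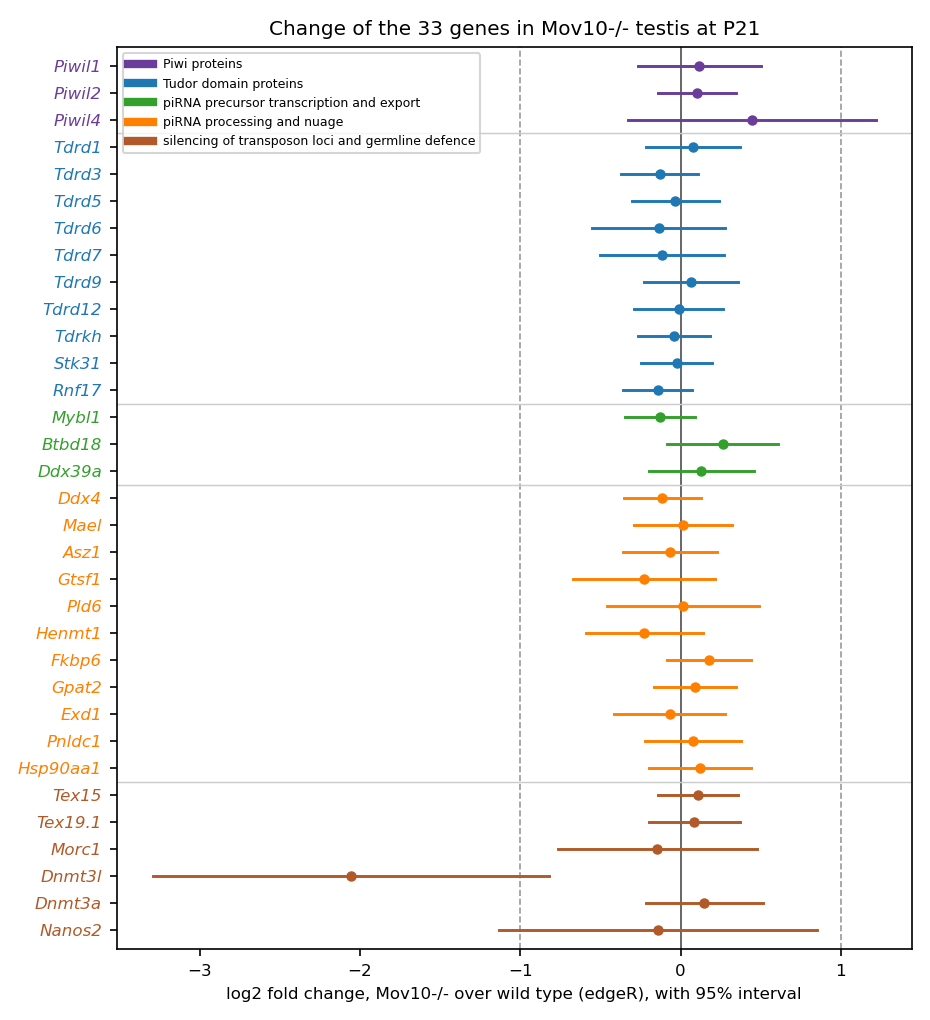
Change of each gene in Mov10-/- over wild type testis, 3 libraries each, as the log2 fold change of the edgeR fit (points) with its 95% interval (lines). Dashed lines mark a 2-fold change; Dnmt3l lies alone at -2.06, and the intervals of Piwil4, Nanos2 and Dnmt3l pass a dashed line.

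In wild type testis most of the 33 genes had a high RNA level. On the TPM scale, which divides by the length of all annotated exons of a gene before scaling by the library, 22 of the 33 genes lay above the 90th percentile of the 34287 genes with any reads. Mael, a nuage protein needed for piRNA production, was highest with a level of 299 ± 10.6 TPM (SD, n = 3). Ddx4, the VASA helicase that marks the germline, followed at 265 ± 7.75 TPM, Piwil1 at 262 ± 10.1 TPM, Tdrd6 at 229 ± 12.4 TPM and Piwil2 at 211 ± 18.8 TPM. The values of Mael lay above those of Ddx4 in all 3 libraries, and those of Piwil1 above those of Tdrd6, while Ddx4 and Piwil1, and Tdrd6 and Piwil2, overlapped. Over the whole order only 5 of 32 neighbouring pairs were separate in the wild type libraries. The other separate pairs were Henmt1 above Pnldc1, Btbd18 above Dnmt3a, and Dnmt3a above Morc1. With the longest transcript in place of all exons, 3 of these 5 genes remained among the top 5.

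**Figure D2:**
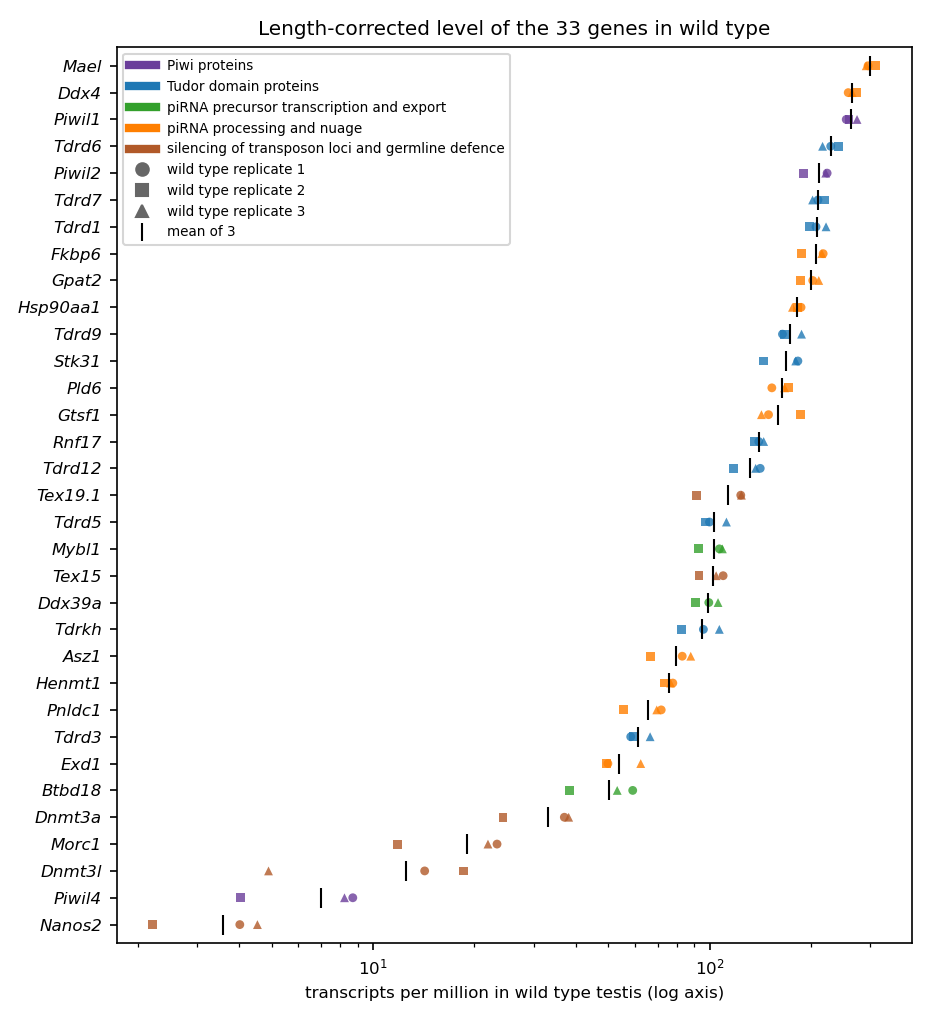
Levels in the 3 wild type libraries (symbols) and their mean (bar), in TPM on a log axis, ordered by the mean. The genes run from Mael at 299 TPM to Nanos2 at 3.59 TPM, and most neighbours overlap.

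The lowest 5 genes belonged to the Piwi proteins (Piwil4) and to the silencing of transposon loci. Dnmt3a reached 33.1 ± 7.66 TPM, Morc1 19.0 ± 6.28 TPM, Dnmt3l 12.6 ± 6.98 TPM, Piwil4 6.99 ± 2.56 TPM and Nanos2 3.59 ± 1.22 TPM (SD, n = 3). The remaining 23 genes lay between Btbd18 at 50.1 TPM and Tdrd7 at 210 TPM.

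The start sites of 24 of the 33 genes were listed in RefSeq's promoter table for GRCm38, the assembly that mm10 stands for, in 37 windows from 250 bases before to 50 after a start. A-MYB, which is encoded by Mybl1, and the bHLH protein TCFL5 are known regulators of the pachytene piRNA programme, and an E-box is the site class of bHLH proteins. The letters AACNGNC of the MYB site, on either strand, were present in at least 1 window of 14 of the 24 genes, or 58.3%, against 36.0% of the 27025 genes in the table. The E-box CACGTG was present for 10 of 24 genes, or 41.7%, against 8.09% of all genes. The E2F letters TTCCCGC were present for 2 of 24 genes, or 8.33%, against 5.29%. Windows of these 24 genes also held more CG pairs, with a median of 20 against 7 over all 32851 windows, and CACGTG itself contains a CG. These matches are a description of the letters in the windows, and no binding was measured. The 250 bases before the start are shown for 3 examples among the genes with several matches, 5′ to 3′ on the gene's strand, with the MYB, E-box and E2F letters in capitals, because Piwil1 and Fkbp6 each carry 2 E-boxes, as does Tdrd9, which is not shown, and Ddx4 carries an E-box and an E2F match.
Piwil1 (chr5:128735996-128736245, plus strand): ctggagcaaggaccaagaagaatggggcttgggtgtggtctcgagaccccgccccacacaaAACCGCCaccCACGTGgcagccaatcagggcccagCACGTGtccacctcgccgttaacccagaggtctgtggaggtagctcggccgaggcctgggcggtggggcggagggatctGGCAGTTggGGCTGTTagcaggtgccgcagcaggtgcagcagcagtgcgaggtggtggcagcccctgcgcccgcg
Fkbp6 (chr5:135350045-135350294, minus strand): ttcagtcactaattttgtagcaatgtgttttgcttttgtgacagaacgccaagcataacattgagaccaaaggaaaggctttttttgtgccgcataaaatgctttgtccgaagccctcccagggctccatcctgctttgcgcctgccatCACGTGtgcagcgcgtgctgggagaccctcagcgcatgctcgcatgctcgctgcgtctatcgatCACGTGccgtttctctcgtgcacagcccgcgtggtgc
Ddx4 (chr13:112652311-112652560, minus strand): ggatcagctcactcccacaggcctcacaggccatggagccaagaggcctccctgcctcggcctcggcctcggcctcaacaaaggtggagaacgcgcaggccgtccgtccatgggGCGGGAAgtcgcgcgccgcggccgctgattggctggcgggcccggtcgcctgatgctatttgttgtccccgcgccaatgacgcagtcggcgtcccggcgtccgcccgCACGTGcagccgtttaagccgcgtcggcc

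The 3 Piwi genes were each a little higher on average in Mov10-/- testis, within the spread of the libraries. Piwil1 (MIWI), the Piwi protein of pachytene spermatocytes and round spermatids, gave 252.5, 397.0 and 298.3 CPM in Mov10-/- and 270.2, 312.8 and 289.5 CPM in wild type. The Mov10-/- libraries lay on both sides of the wild type range, and the log2 fold change was 0.12 with a 95% interval from -0.26 to 0.50. Without Mov10-/- replicate 3 it was -0.08. Piwil2 (MILI), which binds piRNAs from prospermatogonia to spermatids, gave 270.3, 339.4 and 300.6 CPM in Mov10-/- and 287.6, 277.5 and 283.5 CPM in wild type. For Piwil2 again 1 Mov10-/- library was below and 2 were above the wild type range (log2 fold change 0.10, interval -0.14 to 0.34). Piwil4 (MIWI2), the nuclear Piwi protein of prospermatogonia, gave 16, 9.87 and 12.5 CPM in Mov10-/- and 11.4, 6.03 and 10.7 CPM in wild type. Its groups overlapped, and the log2 fold change of 0.44 ± 0.33 (SE) had an interval from -0.33 to 1.22. At 44 to 129 reads per library, the interval reached past 2-fold higher.

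Tudor domain proteins bind the methylated arginines of Piwi proteins and assemble the nuage. Of the 10 genes, 8 had a log2 fold change below 0 and 2 above, and all lay between -0.14 and 0.08, with a median of -0.04. Rnf17, a Tudor protein with a RING finger that restrains piRNA amplification in meiosis, was the only one with groups that did not overlap. It gave 185.7, 208.7 and 208.2 CPM in Mov10-/- and 212.7, 234.0 and 218.9 CPM in wild type. All 3 Mov10-/- libraries lay below all 3 wild type libraries by a small margin, with a log2 fold change of -0.14 ± 0.09 (SE), an unadjusted p of 0.163 and an adjusted p of 0.466 in edgeR's quasi-likelihood test. Tdrd6, a scaffold of the chromatoid body of spermatids, gave 286.8, 463.2 and 374.3 CPM in Mov10-/- and 393.7, 471.4 and 370.6 CPM in wild type. Its groups overlapped, with a log2 fold change of -0.14 and an interval from -0.55 to 0.28. Tdrd7, which organises the chromatoid body, changed by -0.12, and Tdrd3, a broadly expressed Tudor protein, by -0.13. Closest to 0 were Tdrd12, a Tudor helicase of secondary piRNA production, at -0.01, Stk31 at -0.03, Tdrd5 at -0.03 and Tdrkh, the mitochondrial partner of the trimmer PNLDC1, at -0.04. Tdrd1, the nuage partner of MILI, and Tdrd9, a helicase of the MIWI2 compartment, were at 0.08 and 0.06. Counting in the sources used here gives no strand setting, and 36.7% of the exon length of Tdrkh lies opposite exons of Oaz3, which had 1139 reads in wild type, so that reads of the 2 genes may not be told apart.

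**Figure D3:**
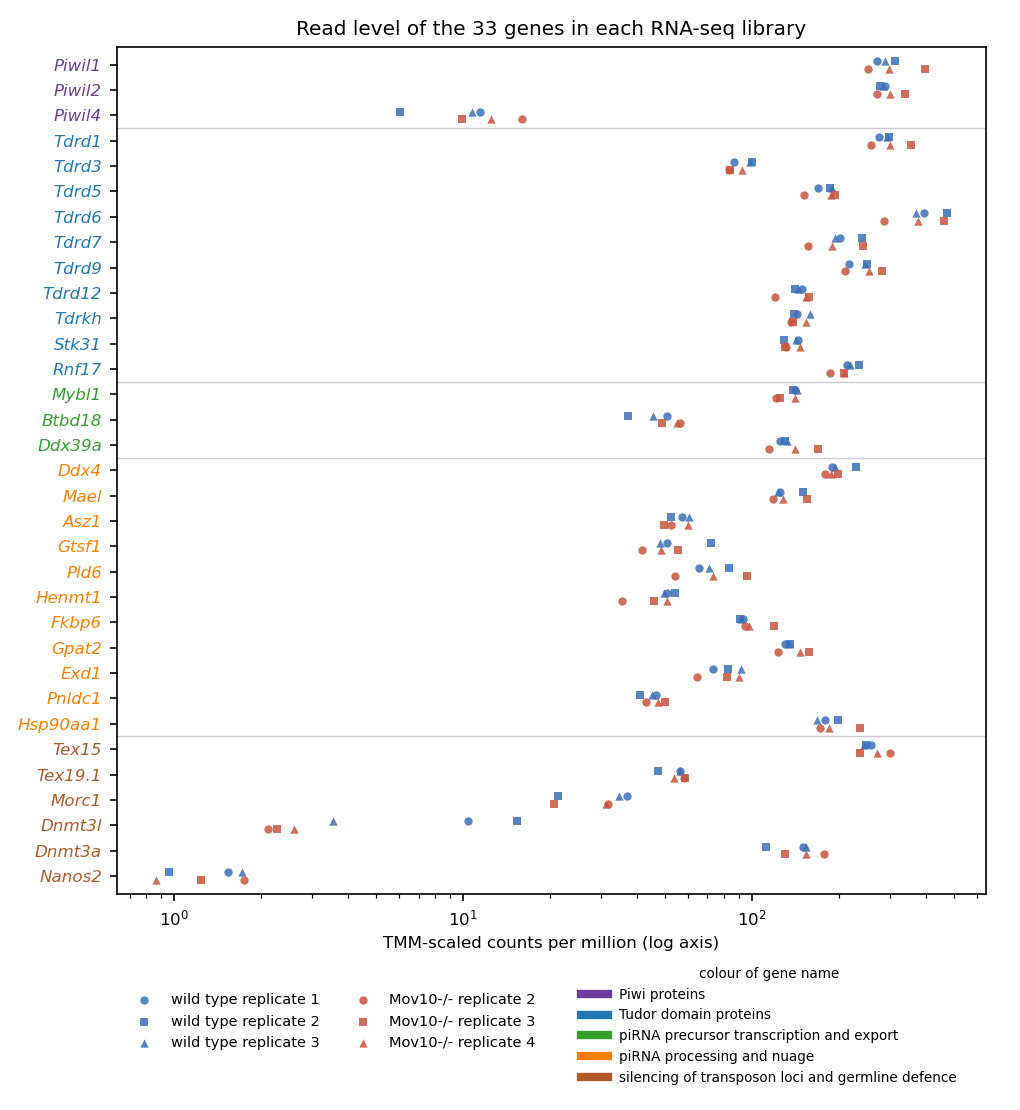
Level of each gene in the 6 RNA-seq libraries, as TMM-scaled CPM on a log axis (blue wild type, red Mov10-/-, symbols for libraries). The red and blue points overlap for all genes except Rnf17, Fkbp6 and Dnmt3l.

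The 3 genes of precursor transcription and export did not change beyond the spread of the libraries. Mybl1, the master transcription factor of pachytene piRNA clusters, gave a log2 fold change of -0.13 ± 0.09 (SE) and groups that overlapped. Btbd18, a nuclear factor for elongation at pachytene piRNA clusters, gave 56.1, 48.9 and 54.9 CPM in Mov10-/- and 50.6, 37.3 and 45.3 CPM in wild type. Only Mov10-/- replicate 3 was inside the wild type range, and the log2 fold change of 0.26 ± 0.15 (SE) had an unadjusted p of 0.116 and an adjusted p of 0.403, the smallest after Dnmt3l (edgeR quasi-likelihood). Ddx39a, an RNA helicase of mRNA export, was at 0.13 ± 0.14 (SE).

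The 11 genes of piRNA processing and the nuage had log2 fold changes from -0.23 to 0.18, 5 below 0 and 6 above (Mael and Pld6 among the latter, but not under DESeq2's size factors), with a median of 0.01. Fkbp6, a co-chaperone that works with HSP90 in the loading of piRNAs and is needed in meiosis, gave 94.2, 119.4 and 97.8 CPM in Mov10-/- and 92.8, 90.9 and 91.5 CPM in wild type. All 3 Mov10-/- libraries were above the wild type range, 2 of them by a few CPM, and the log2 fold change of 0.18 ± 0.11 (SE) had an unadjusted p of 0.162 and an adjusted p of 0.466 in the quasi-likelihood test. Henmt1, the methyltransferase that protects the 3′ end of piRNAs, gave 35.5, 45.8 and 50.9 CPM in Mov10-/- and 50.6, 54.2 and 49.6 CPM in wild type. Mov10-/- replicate 4 lay inside the wild type range, and the log2 fold change was -0.23 ± 0.16 (SE) with an adjusted p of 0.499 in edgeR's test. Of the exon length of Henmt1, 14.7% lies opposite Gm9857.

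Mael gave 118.1, 154.4 and 128.2 CPM in Mov10-/- and 124.7, 149.4 and 122.6 CPM in wild type. Ddx4 gave 179.0, 198.2 and 187.4 CPM in Mov10-/- and 189.4, 228.0 and 193.7 CPM in wild type. The 2 genotypes overlapped for both, with log2 fold changes of 0.01 for Mael and -0.11 for Ddx4. Gtsf1, a zinc finger protein that activates Piwi slicing, was the lowest of the group at -0.23 ± 0.19 (SE). Pld6, the mitochondrial nuclease that cuts precursors, was at 0.02 ± 0.21 (SE), and Pnldc1, which trims their 3′ ends, at 0.08. Asz1 and Gpat2, mitochondrial proteins of the same step, were at -0.07 and 0.09, Exd1, a partner of TDRD12, at -0.07, and the chaperone Hsp90aa1 at 0.12.

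Of the 33 genes, the largest difference was that of Dnmt3l, one of the genes that silence transposon loci. Dnmt3l is a catalytically inactive cofactor of the de novo DNA methyltransferases and is required in prospermatogonia for the methylation of retrotransposons. It gave 2.11, 2.26 and 2.59 CPM in Mov10-/- and 10.4, 15.3 and 3.54 CPM in wild type, which are 17, 11 and 21 reads against 88, 112 and 33 reads. The Mov10-/- libraries lay close together and below every wild type library, and the wild type libraries spread over more than 4-fold, with replicate 3 near the Mov10-/- values. The log2 fold change was -2.06 ± 0.53 (SE), or 4.16-fold lower, with a 95% interval from -3.29 to -0.82. In edgeR's quasi-likelihood test the unadjusted p was 0.0051 and the adjusted p was 0.15, so the gene was not called. DESeq2 called it with an adjusted p of 0.0181, and 5.11% of all genes tested were called in that way. It was also called by edgeR's exact test (adjusted p 0.0185, 1101 genes called in all). The same held for edgeR's likelihood ratio test (adjusted p 0.0149, 1187 genes called in all). By limma voom it was not called (adjusted p 0.257, 2 genes called in all). With each library left out in turn, DESeq2's adjusted p for Dnmt3l ran from 7.5e-05 without wild type replicate 3 to 0.327 without wild type replicate 2, and only the former passed the threshold. The log2 fold change lay between -2.51 and -1.57 in every setting tried.

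Spermatid markers moved in the same direction between the genotypes, and their part in the Dnmt3l result was not tested. Of the 17 spermatid markers tested, 10 were lower without overlap of the groups, against 14.1% of all genes tested, and their median log2 fold change was -2.19. The wild type libraries had the same order for Dnmt3l as for the summed spermatid markers, replicate 2 above 1 above 3. In Mov10-/- Dnmt3l had 2.11, 2.26 and 2.59 CPM from 17, 11 and 21 reads, so that an order of these libraries rests on few reads. Mov10-/- replicate 3 had 462 CPM of spermatid markers and 2.26 CPM of Dnmt3l. Wild type replicate 3 had 505 CPM of the markers and 3.54 CPM of Dnmt3l. Median log2 fold changes of the other marker lists were -0.14 for pachytene spermatocytes (12 genes), 0.02 for early meiotic spermatocytes (14 genes), 0.23 for spermatogonia (15 genes) and 0.31 for Sertoli cells (11 genes). Groups were higher without overlap for 5 of the 11 Sertoli markers, 3 of the 15 spermatogonial and 3 of the 8 peritubular and endothelial markers, against 11.9% of all genes tested. The summed early meiotic markers ran from 1825 to 1890 CPM in wild type and from 1790 to 1920 CPM in Mov10-/-, and the pachytene markers from 1395 to 1772 and from 1152 to 1735 CPM. Every marker listed had reads in wild type except the Sertoli gene Rhox5. Medians were 0.21 for Leydig cells, 0.27 for peritubular and endothelial cells and 0.32 for macrophages.

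**Figure D4:**
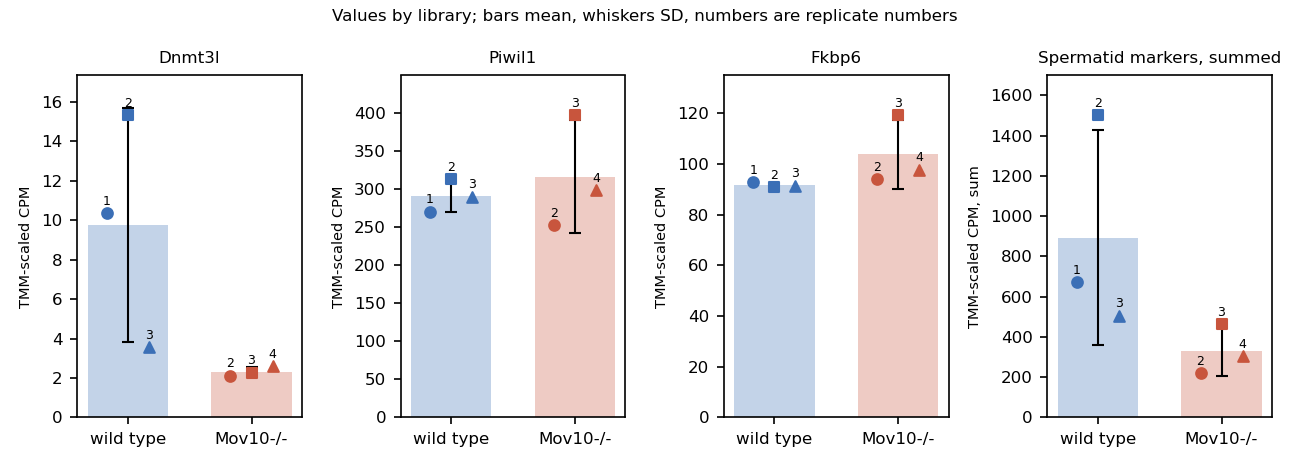
Values by library for Dnmt3l, Piwil1, Fkbp6 and the sum of the spermatid markers, in TMM-scaled CPM from 0 (bars mean, whiskers SD, n = 3, numbers the replicate). Dnmt3l is low in all 3 Mov10-/- libraries and spread from 3.54 to 15.3 in wild type; Fkbp6 is above the wild type range in all 3.

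Dnmt3l has several start sites, used in different germ cells, and RefSeq lists 3 on chromosome 10. The counts are summed over the gene and do not tell the starts apart. The 250 bases before each start are given because the gene carries the largest difference, with the MYB and E-box letters in capitals. The most upstream window holds 2 MYB matches, the middle window 1 E-box, and the most downstream window neither. On the opposite strand, 2.24% of the exon length of Dnmt3l overlaps Aire, which had 43 reads in the wild type libraries together.
Dnmt3l, most upstream start (chr10:78042037-78042286, plus strand): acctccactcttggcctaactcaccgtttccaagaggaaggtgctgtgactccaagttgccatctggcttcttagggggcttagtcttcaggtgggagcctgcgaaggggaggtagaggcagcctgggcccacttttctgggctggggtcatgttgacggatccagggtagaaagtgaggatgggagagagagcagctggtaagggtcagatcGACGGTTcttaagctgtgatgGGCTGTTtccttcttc
Dnmt3l, middle start (chr10:78049592-78049841, plus strand): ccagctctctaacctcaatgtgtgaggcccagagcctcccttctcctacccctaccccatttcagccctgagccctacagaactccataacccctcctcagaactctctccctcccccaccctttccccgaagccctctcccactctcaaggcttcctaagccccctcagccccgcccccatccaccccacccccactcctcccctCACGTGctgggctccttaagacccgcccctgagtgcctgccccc
Dnmt3l, most downstream start (chr10:78055085-78055334, plus strand): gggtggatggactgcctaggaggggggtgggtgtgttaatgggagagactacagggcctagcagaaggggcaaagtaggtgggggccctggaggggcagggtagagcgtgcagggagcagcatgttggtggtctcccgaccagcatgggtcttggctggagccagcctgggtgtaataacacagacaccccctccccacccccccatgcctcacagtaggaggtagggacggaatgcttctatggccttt

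The other 5 genes of this group had log2 fold changes between -0.14 and 0.15 and groups that overlapped. The catalytic partner of DNMT3L, Dnmt3a, gave a log2 fold change of 0.15 ± 0.16 (SE), and Tex15, a nuclear partner of MIWI2, gave 0.11. Tex19.1, a protein that limits retrotransposons in germ cells, was at 0.09. Morc1, an ATPase required for the silencing of retrotransposons in fetal germ cells, was at -0.14 ± 0.27 (SE). Nanos2, an RNA-binding protein of male fetal germ cells and spermatogonial stem cells, was the lowest gene of all. It gave 1.74, 1.23 and 0.86 CPM in Mov10-/- and 1.53, 0.96 and 1.72 CPM in wild type, from 6 to 16 reads per library. Its log2 fold change of -0.14 had an interval from -1.13 to 0.85, and a 2-fold fall lay inside that interval. Of the exon length of Nanos2, 49.0% lies opposite Gm45058, which had 1 read in wild type.

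The libraries of a genotype also differed in the level of these genes. Mov10-/- replicate 2 was the lowest of its genotype for 24 of the 33 genes (72.7%, against 42.5% of all genes tested), and Mov10-/- replicate 3 the highest for 19 (57.6%, against 43.1%). In wild type no replicate held such an excess: replicate 2 was the highest for 15 genes (45.5%, against 39.3% of all genes tested) and the lowest for 14 (42.4%, against 43.5%). Highest in both wild type replicate 2 and Mov10-/- replicate 3, the libraries with the most spermatid marker RNA, were 12 genes, or 36.4% against 25.7% of all genes tested, namely Piwil1, Tdrd1, Tdrd6, Tdrd7, Tdrd9, Rnf17, Ddx4, Mael, Gtsf1, Pld6, Gpat2 and Hsp90aa1. A further 6 genes (18.2%, against 23.1%) were lowest in both, namely Piwil4, Stk31, Btbd18, Asz1, Morc1 and Dnmt3a. Other pairs of libraries also lay above or below the share of all genes. Lowest in wild type replicate 1 and Mov10-/- replicate 2 were 11 genes (33.3%, against 19.5%). Lowest in wild type replicate 2 and Mov10-/- replicate 2 were 6 (18.2%, against 7.24%). Highest in wild type replicate 1 and Mov10-/- replicate 2 were 4 (12.1%, against 18.2%). The share of all gene reads that fell on the 33 genes was 0.450% to 0.457% in wild type and 0.421%, 0.482% and 0.467% in Mov10-/-, so that the Mov10-/- libraries lay on both sides of the wild type ones.

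**Figure D5:**
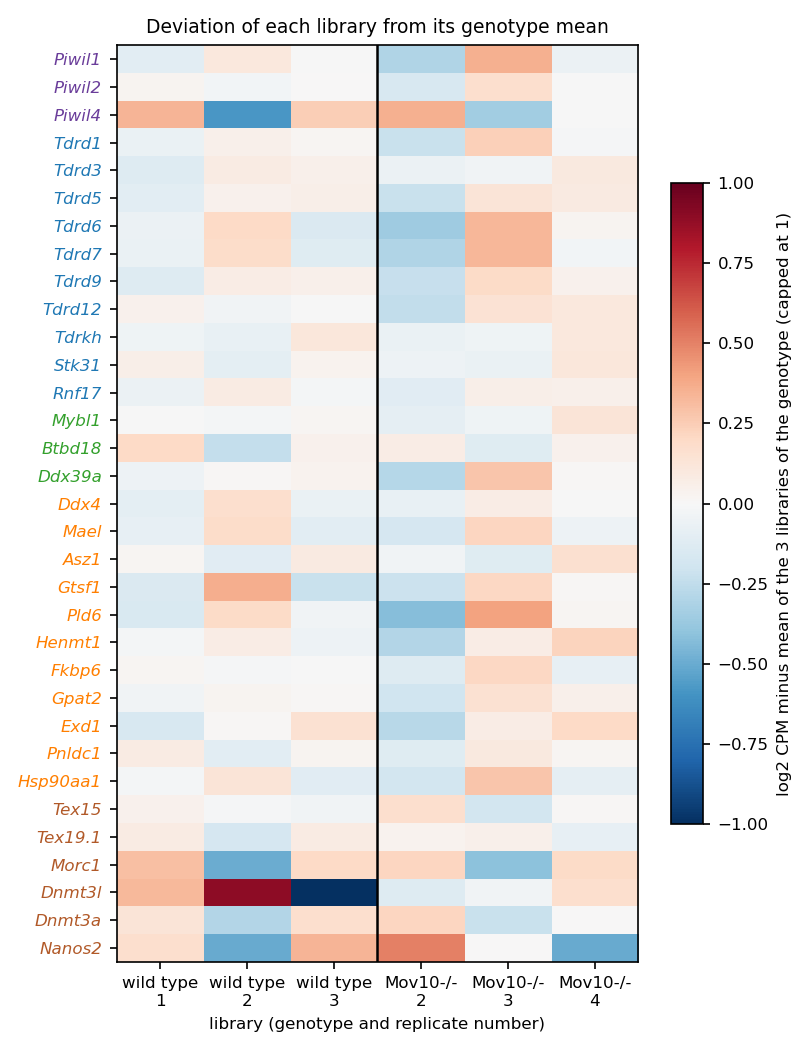
Deviation of each library from the mean of its genotype for the 33 genes, in log2 CPM (red above, blue below, capped at 1). Mov10-/- replicate 2 is blue for most genes, and Piwil4, Morc1 and Dnmt3a are blue in wild type replicate 2 and Mov10-/- replicate 3.

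Of 25 other genes of the pathway, 23 were matched and tested. None was called by edgeR's quasi-likelihood test, with a median log2 fold change of 0.11, 5 genes below 0 and 18 above. At an unadjusted p under 0.05, 2 genes were lower, against 11.9% of all genes tested, and none was higher, against 5.58%. Kif17, a kinesin of the testis linked to the chromatoid body, gave 19.97, 58.6 and 28.9 CPM in Mov10-/- and 81.1, 199.3 and 58.4 CPM in wild type. Its groups overlapped, with a log2 fold change of -1.68 ± 0.53 (SE) and an adjusted p of 0.182 in edgeR's test, and in each genotype the highest library was the one with the most spermatid marker RNA. Spocd1, a partner of MIWI2 in piRNA-directed DNA methylation, gave 12.7, 13.8 and 16.3 CPM in Mov10-/- and 23.0, 23.7 and 16.9 CPM in wild type. All Mov10-/- libraries were lower, with a log2 fold change of -0.57 ± 0.23 (SE) and an adjusted p of 0.261 in edgeR's test. The next smallest p-values belonged to Ddx39b, Hsp90ab1 and Snd1, with log2 fold changes of 0.25, 0.25 and 0.23 and all Mov10-/- libraries above wild type. With Ptges3, groups were higher without overlap for 4 of the 23 genes, against 11.9% of all genes tested. Lower without overlap was 1 gene, Spocd1, against 14.1%. Mov10l1, the germline paralog of Mov10 that binds piRNA precursors, was at 0.12 ± 0.12 (SE), and Tcfl5, the second regulator of pachytene piRNA transcription, at -0.05.

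In CLIP-seq, which recovers RNA crosslinked to MOV10 with an antibody, the 33 genes had few reads. Of all reads in the CLIP-seq libraries, 99.5% to 99.6% were not aligned and 0.026% to 0.0521% were counted on genes, which left 3404 to 4934 reads. Libraries 1, 2 and 3 differed by less than the sampling noise and were counted as 1 sample. Reads on the 33 genes numbered 7, 7, 6 and 10 in libraries 1, 2, 3 and 5, which is 0.177%, 0.204%, 0.176% and 0.203% of gene reads. The upper ends of their exact 95% binomial intervals, 0.365%, 0.421%, 0.383% and 0.372%, lay below the share in wild type RNA-seq. CLIP-seq thus held the 33 genes at 0.428 times the wild type RNA-seq share. No ratio was taken for other genes of like level, so it is not shown to be particular to these genes. The paper reports weaker MOV10 binding in general for transcripts with higher testis levels. At the RNA-seq share, library 5 would have had 22.4 reads on them. Most uniquely aligned CLIP-seq reads were counted on no gene, 22783 to 39232 per library. Divided by all uniquely aligned reads in place of reads on genes the ratio was 0.0834. Reads aligned to several places were left out of both. The intervals cover counting error only.

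Of the 33 genes, 11 had a CLIP-seq read in any library, or 33.3% against 18.1% of all genes tested. These shares were not corrected for level or length. In wild type, 22 of the 33 genes lay above the 90th percentile of level, so the shares do not show preferential binding. None reached the 10 reads that would allow a ratio for a single gene. Dnmt3a had 2 reads in each of libraries 1, 2 and 3 and none in library 5. Stk31, a Tudor protein with a kinase domain, had 0, 1, 0 and 4 reads, and was the only one of the 33 with over 2 reads in a library. Piwil1, Tdrd3, Tdrd5 and Tdrd7 had 1 read in each of libraries 1, 2 and 3 and none in library 5, and Tdrd1 had 1 read in libraries 1 and 5. Mael had 2 reads and Piwil4, Tex15 and Dnmt3l 1 read each in library 5 alone. A count of 0 allows up to 3 reads, or 608 to 881 CPM of the reads on genes in these libraries, above the RNA-seq level of any of the 33 genes in wild type, so a 0 does not show that a transcript was unbound.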

How the data were processed

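RNA-seq libraries of wild type and Mov10-/- testis and MOV10 CLIP-seq libraries were grouped by their titles. The authors deposited raw read counts per Ensembl gene for each of the 10 libraries. The methods describe trimmed RNA-seq reads, aligned to mm10 by STAR and counted by htseq-count on Ensembl genes, and refer to earlier work for CLIP-seq. The submitters' notes list STAR, HTSeq and edgeR. The strand setting is not given in the sources used here. Gene names, exon lengths and overlaps came from a GENCODE annotation of the same build, which matched 55240 of the 55421 genes, and promoters from RefSeq. For 9 of the 33 genes no promoter was used.

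Counts were tested with edgeR 4.0.16 (TMM, quasi-likelihood, Benjamini-Hochberg over all 20240 genes tested) in R 4.3.3, on genes above 1 CPM in at least 3 of 6 libraries. The methods name edgeR, a fold over 2 and a false discovery rate of 0.05. DESeq2 1.42.0, edgeR's exact and likelihood ratio tests, limma 3.58.1 (voom), other scalings, no filter, a replicate block and each library left out were alternatives. Standard errors were taken from the fold change and the F statistic. The fits were run on simulated counts with planted folds, and the check made was that the fitted fold changes followed these. How many changes the tests miss or call falsely is not given here. Every one of the 33 genes was to be named, with library values for genes whose groups did not overlap, the Piwi genes, the 5 smallest p-values, the 5 highest levels and genes with a CLIP-seq read (for the last, the CLIP-seq counts). The genes, the other lists and the tests were chosen with earlier results of these data known. The p-values set the difference between the genotypes against the spread between these libraries. Transposon RNA was not analysed here. Python 3.11.15 made tables and figures.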

Additional observations from a re-analysis of the deposited data

Results flagged for a closer look

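In 9 of 12 CLIP-seq comparisons across the 4 libraries, library 5 stood apart from libraries 1, 2 and 3. The usual rate of such gaps by chance, about 1 in 20 groups, does not apply here, because counts of 0 to 2 reads beside 3 near-identical libraries fix the gap. Over the reads on genes, library 5 had 0 CPM for Piwil1, Tdrd3, Tdrd5, Tdrd7 and Dnmt3a, where each of the other libraries had at least 1 read. It had 203 CPM for each of Piwil4, Tex15 and Dnmt3l, and 405 CPM for Mael, where the others had none. Each of these values rests on at most 2 reads in library 5, and libraries 1, 2 and 3 gave a chi-square per degree of freedom of 0.219 to 0.237 among themselves, too alike to be read as 3 independent samples.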

How the results depend on the processing

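The median log2 fold change of the 33 genes moved by less than the spread between libraries in every planned setting, and the count at an unadjusted p under 0.05 was 1 in every planned setting but the replicate block; neither was computed for DESeq2 with a library left out. By DESeq2, edgeR's exact test and edgeR's likelihood ratio test, 1 of the 33 genes, Dnmt3l, was called, and 1034, 1101 and 1187 of all genes. All genes called numbered 2 with limma voom, 6 with library totals alone, 10 without the filter and 0 to 1 with a library left out. DESeq2 with a library left out, added after seeing the data, called 315, 1019 and 407 genes without Mov10-/- replicates 2, 3 and 4, and 867, 220 and 1109 without wild type replicates 1, 2 and 3, with Dnmt3l (1 of the 33) called in the last alone. The cause of these differences was not tested. Groups of 3 to 10 of the 33 genes did not overlap with a library left out, since smaller groups overlap less often by construction. The CLIP-seq ratio was 0.0834 over all uniquely aligned reads, and 3 of the top 5 genes were shared when the longest transcript gave the length.

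The replicate numbers shared between the genotypes did not pair the samples (correlations of same-numbered deviations -0.47 and -0.35). In a fit with the replicate block, wild type replicate 1 and Mov10-/- replicate 4 have no partner. The change in that fit thus rests on replicates 2 and 3 of each genotype. It called 184 genes, none (0) of the 33 at an unadjusted p under 0.05. Its log2 fold changes were -0.0268 for Tdrd9, -0.0034 for Mael, -0.0970 for Pld6 and 0.19 for Nanos2, which changed sign. Sign also changed for Mael with DESeq2 (-0.0029), its size factors (-0.0029) and no filter (-0.0035), and for Pld6 with voom (-0.0482), those size factors (-0.00092) and no filter (-0.0036). With each library left out, 16 genes that were not called crossed 0: Piwil1 from -0.0786 to 0.26, Tdrd1 from -0.0478 to 0.18, Tdrd5 from -0.0985 to 0.0716, Tdrd6 from -0.32 to 0.0236, Tdrd7 from -0.29 to 0.0239, Tdrd9 from -0.0328 to 0.17, Tdrd12 from -0.0828 to 0.10, Tdrkh from -0.0961 to 0.0045, Stk31 from -0.0843 to 0.0053, Ddx39a from -0.0180 to 0.26, Mael from -0.10 to 0.11, Pld6 from -0.20 to 0.20, Exd1 from -0.17 to 0.0598, Hsp90aa1 from -0.0268 to 0.21, Morc1 from -0.34 to 0.0277 and Nanos2 from -0.46 to 0.0944. Nanos2, Dnmt3l and Piwil4 had the lowest read counts of the 33 genes, and Dnmt3l also spread from 3.54 to 15.3 CPM in wild type. Depth limits the CLIP-seq counts of all 33 genes.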
